A study of Rattus norvegicus with 8 samples.

Results

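The genes described here are 10 members of the transforming growth factor beta (TGF-beta) and bone morphogenetic protein (BMP) pathways in the rat kidney, namely Tgfb1, Tgfb2, Tgfb3, Tgfbr1, Smad3, Smad7, Bmp2, Bmp4, Bmp7 and Fst. They were taken by symbol from the probes of a 1-colour Agilent rat expression array, each probe being named through its RefSeq accession, and all 10 were found among the 14400 genes with a symbol on the array. They are covered by 15 probes, with 1 probe for 6 of the genes, 2 for Tgfb2, Bmp2 and Fst and 3 for Tgfbr1. The samples are right kidneys of 10-week-old females of the strain F344/NSlc, 4 from rats with a sham operation and 4 from rats whose other kidney had been removed (unilateral nephrectomy), and the comparison addresses the early response of the kidney that is left. The animals are of an inbred strain, and the labels name no transgene or drug in either group. The source names place the sham kidneys at 1 day and the nephrectomized kidneys at 2 days after surgery, while the design text gives 2 days, so that day and operation cannot be told apart if the source names hold. The labels list the samples as separate without tying them to named animals, so that p-values reflect only how these samples varied.

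TGF-beta ligands are secreted in a latent form and, once released, bring together a type II receptor and the type I receptor Tgfbr1, which phosphorylates Smad2 and Smad3. BMP ligands use related receptors and phosphorylate Smad1, Smad5 and Smad9, and both branches share Smad4 and are restrained by the inhibitory Smad6 and Smad7. In the kidney TGF-beta signalling is known for its part in scarring and matrix deposition, whereas Bmp7 is known as a factor of nephron formation that is kept up in the adult tubule.

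Values are log2 of the processed signal minus the 75th percentile of the same array, so 0 is the level below which 75% of the probes on an array lie. The 75th percentile signal was between 388 and 643, between 59.5% and 66.1% of the 41012 probes were well above background, and the 8 kidney tubule markers checked, among them Umod, Slc34a1 and Aqp2, were well above background on all 8 arrays. Replicates 1 and 2 of both groups shared slide 1, and replicates 3 and 4 shared slide 2, which was scanned separately. On each slide the sham arrays were at positions 1 and 2 and the nephrectomized arrays at positions 3 and 4, so array position and group cannot be told apart. Every gene was compared with limma over 20935 features, a gene being represented by its brightest probe. Of these features 10240 had a gene symbol, and the rest were grouped by accession alone. A difference is nephrectomized minus sham on the log2 scale, and it was called at a Benjamini-Hochberg adjusted p under 0.05.

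No member of the pathway set was called after nephrectomy, although Tgfb2 and Bmp4 were lower and Bmp7 was higher on every nephrectomized array than on any sham array. With limma 0 of 10 members passed, against 1.04% of all features, and the smallest adjusted p was 0.119, for Bmp4. At an unadjusted limma p under 0.05 there were 3, namely Tgfb2, Smad7 and Bmp4, against 16.0% of all features. The groups did not overlap for 2 members that were lower, against 4.07% of all features, and for 1 that was higher, against 7.06%. The members were chosen with earlier results of these data known, so these shares only describe them. The median difference of the 10 genes was -0.15 against 0.01 over all features, with 6 members negative and 4 positive, and 52.5% of all features were positive. The differences were small, the largest being 1.31-fold for Tgfb3. All 10 limma intervals lay between -0.79 and 0.42.

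**Figure D1:**
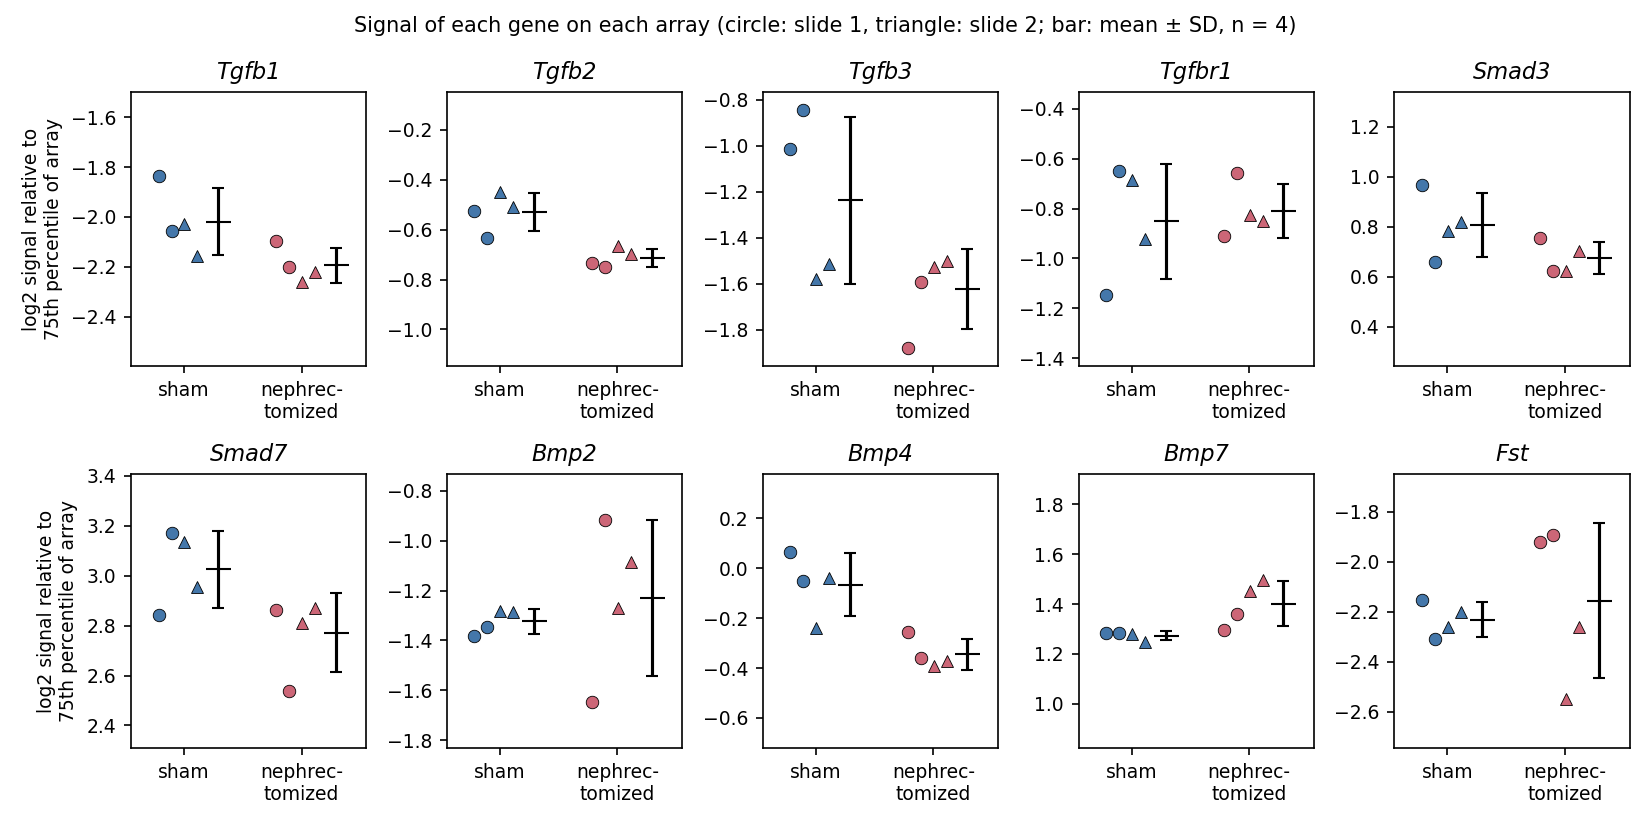
Log2 signal relative to the array's 75th percentile (y axis, with its own range for each gene) of the 10 genes on each of 4 sham and 4 nephrectomized arrays, circles for slide 1 and triangles for slide 2, with the group mean ± SD. Tgfb2 and Bmp4 lie lower and Bmp7 lies higher on all nephrectomized arrays, while the sham values of Tgfb3 split between the slides.

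The promoters of Tgfb2 and Bmp4 are shown because these are the members that were lower without overlap. RefSeq windows on GRCr8, running from 250 bases before to 50 after the start of the gene, were matched for 7 of the 10 members. The motifs searched on both strands were CAGAC, a core to which SMAD proteins bind, GGGCGG (the GC box), CACGTG (an E box), TGACGTCA (the cAMP response element) and TATAAA, and capitals mark their matches. The Tgfb2 window is chr13:100792636-100792935 and the Bmp4 window chr15:22101884-22102183, both on the minus strand and written 5′ to 3′.
Tgfb2: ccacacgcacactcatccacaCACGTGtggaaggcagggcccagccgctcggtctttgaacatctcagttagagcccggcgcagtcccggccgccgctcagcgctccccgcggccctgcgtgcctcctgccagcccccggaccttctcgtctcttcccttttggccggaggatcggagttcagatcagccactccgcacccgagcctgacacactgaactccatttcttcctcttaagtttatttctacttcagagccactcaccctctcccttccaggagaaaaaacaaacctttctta
Bmp4: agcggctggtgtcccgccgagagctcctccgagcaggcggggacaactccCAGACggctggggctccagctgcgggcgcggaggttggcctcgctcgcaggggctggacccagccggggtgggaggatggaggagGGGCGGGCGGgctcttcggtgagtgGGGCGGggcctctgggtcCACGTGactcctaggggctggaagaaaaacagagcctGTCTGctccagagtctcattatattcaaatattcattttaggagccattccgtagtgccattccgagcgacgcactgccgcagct
The Bmp4 window held CAGAC or its reverse complement GTCTG at 2 places, 200 and 35 bases before the start, and GGGCGG at 3 places, of which those 115 and 111 bases before the start overlap. The Tgfb2 window held neither of these motifs. Among all 33469 windows 50.1% held CAGAC and 33.1% GGGCGG. Each of the windows held CACGTG at 1 place, 229 bases before the start in Tgfb2 and 72 bases before it in Bmp4, as did 6.42% of all windows, and neither held TGACGTCA or TATAAA, which were found in 1.83% and 14.2%. These matches describe the letters only, since binding was not measured.

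Among the ligands, Tgfb1 encodes the isoform best known for kidney scarring. It was at -1.83, -2.05, -2.03 and -2.16 in sham replicates 1 to 4 and at -2.10, -2.20, -2.26 and -2.22 in nephrectomized replicates 1 to 4. Sham replicate 4 lay among the nephrectomized values, so the groups overlapped. The group means were -2.02 ± 0.14 and -2.19 ± 0.07 (SD, n = 4 each), a difference of -0.18 ± 0.08 (SE; limma adjusted p = 0.324). It was -0.11 without sham replicate 1 and, with normexp background correction, another treatment of the spot background, -0.04.

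Tgfb2 encodes a second isoform of the ligand and has 2 probes, designed against different RefSeq transcripts of the gene. The brighter was at -0.53, -0.63, -0.45 and -0.51 in sham and at -0.73, -0.75, -0.67 and -0.70 in nephrectomized replicates 1 to 4, with the groups apart but only 0.03 between the lowest sham and the highest nephrectomized value. The difference was -0.18 ± 0.06 (SE; limma adjusted p = 0.174; 95% interval -0.32 to -0.05), or 88.1% of the sham level. The dimmer probe gave -0.28 (limma adjusted p = 0.275 with every probe tested), also without overlap, from -2.0, -2.40, -2.33 and -2.43 to -2.46, -2.78, -2.54 and -2.51. The brighter probe was lower by 0.16 on slide 1 and by 0.20 on slide 2, and its groups stayed apart with normexp and with quantile, median and cyclic loess scaling.

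Tgfb3, the third isoform, had the largest difference and also the widest spread among sham kidneys. It was at -1.01 and -0.85 in sham replicates 1 and 2 but at -1.58 and -1.51 in sham replicates 3 and 4, and at -1.88, -1.59, -1.53 and -1.5 in the nephrectomized replicates. Sham replicates 3 and 4 thus lay at the nephrectomized level. The difference of -0.39 ± 0.18 (SE; limma adjusted p = 0.332) was -0.81 on slide 1 and 0.03 on slide 2, and it was -0.22 with normexp and -0.26 without sham replicate 2.

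Tgfbr1 encodes the type I receptor (ALK5) through which all TGF-beta isoforms signal. Its brightest probe was at -1.14, -0.65, -0.69 and -0.92 in sham and at -0.91, -0.66, -0.82 and -0.85 in nephrectomized kidneys. The nephrectomized values lay inside the sham range, with a difference of 0.04 ± 0.12 (SE; limma adjusted p = 0.905; 95% interval -0.23 to 0.31). The other probes gave -0.12 and -0.09, the dimmest being well above background on 4 sham and 2 nephrectomized arrays, so the sign differed between probes.

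Smad3, the SMAD that carries the signal of Tgfbr1 to the nucleus, was at 0.97, 0.66, 0.78 and 0.82 in sham and 0.75, 0.62, 0.62 and 0.70 in nephrectomized kidneys. The groups overlapped through sham replicate 2, and the difference was -0.13 ± 0.08 (SE; limma adjusted p = 0.441), or -0.08 without sham replicate 1. Smad7, an inhibitory SMAD that is itself induced by TGF-beta and BMP signals, was at 2.84, 3.17, 3.14 and 2.95 in sham and 2.86, 2.54, 2.81 and 2.87 in nephrectomized kidneys. Only sham replicate 1 lay within the nephrectomized range. The difference of -0.26 ± 0.10 (SE; limma adjusted p = 0.281; unadjusted p = 0.0384) was -0.31 on slide 1 and -0.20 on slide 2.

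Of the BMP ligands, Bmp4, which is made by stromal and smooth muscle cells in the kidney, gave the smallest p of the set. It was at 0.06, -0.05, -0.24 and -0.04 in sham and at -0.26, -0.36, -0.39 and -0.37 in nephrectomized kidneys. All nephrectomized values lay below all sham values, with sham replicate 3 only 0.02 above nephrectomized replicate 1. The difference was -0.28 ± 0.07 (SE; limma adjusted p = 0.119; 95% interval -0.45 to -0.11), from -0.07 ± 0.13 to -0.35 ± 0.06 (SD, n = 4 each), which is 82.4% of the sham level. It was -0.31 on slide 1 and -0.24 on slide 2. The groups overlapped with normexp and when arrays were aligned on their medians.

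Bmp7, a ligand of the tubule and podocytes, was at 1.28, 1.28, 1.28 and 1.25 in sham and at 1.30, 1.36, 1.45 and 1.5 in nephrectomized kidneys. The sham values hardly varied (SD 0.02, n = 4), and nephrectomized replicate 1 lay just above them. The difference was 0.13 ± 0.06 (SE; limma adjusted p = 0.345), with a 95% interval from -0.01 to 0.26. It was 0.05 on slide 1, 0.21 on slide 2 and 0.07 with normexp, and the groups overlapped with normexp, quantile and cyclic loess normalization.

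Bmp2, a close relative of Bmp4, was at -1.38, -1.34, -1.28 and -1.28 in sham and at -1.65, -0.92, -1.27 and -1.08 in nephrectomized kidneys. The nephrectomized kidneys lay on both sides of the sham values, with an SD of 0.31 against 0.05, and the difference was 0.09 ± 0.14 (SE; limma adjusted p = 0.799). Its dimmer probe, well above background on 5 of 8 arrays, gave 0.34 (adjusted p = 0.298 with every probe tested). Fst encodes follistatin, which binds activins and some BMPs and keeps them from their receptors. It was at -2.15, -2.31, -2.26 and -2.20 in sham and at -1.92, -1.89, -2.55 and -2.26 in nephrectomized kidneys. Nephrectomized replicates 1 and 2 were above and replicate 3 was below every sham value, and the difference of 0.08 ± 0.14 (SE; limma adjusted p = 0.845) was 0.32 on slide 1 and -0.17 on slide 2. The second probe of Fst gave 0.29, with 0.84 on slide 1 and -0.27 on slide 2.

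**Figure D2:**
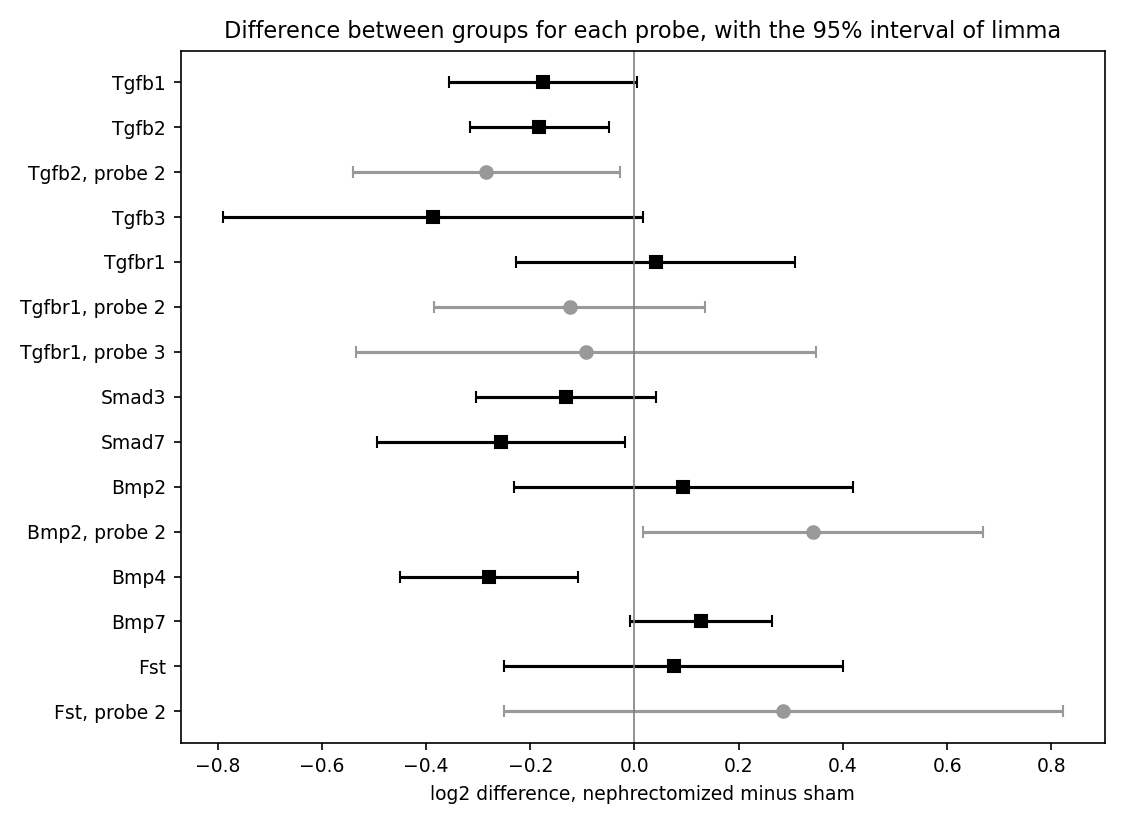
Log2 difference (x axis, nephrectomized minus sham, 4 against 4 arrays) of each of the 15 probes with limma's 95% interval, black squares for the probe that represents a gene and grey circles for its other probes. Among the squares, the intervals of Tgfb2, Smad7 and Bmp4 do not reach 0, and none passed after adjustment.

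**Figure D3:**
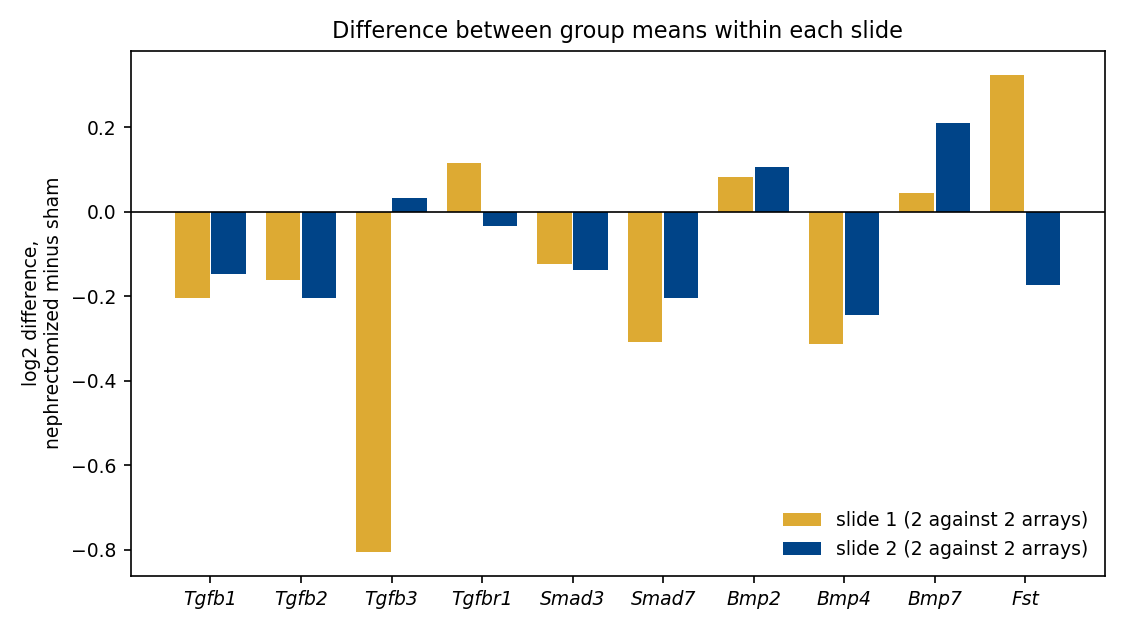
Log2 difference between the group means (y axis) within slide 1 and within slide 2, from 2 sham and 2 nephrectomized arrays each, for the probe that represents each gene. The bars of Tgfb3, Tgfbr1 and Fst point in opposite directions on the slides, and those of the other 7 genes point the same way.

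The bars drawn within each slide show that 7 of the 10 genes kept their sign on both slides. With slide as a block in limma 0 of 10 members passed as well, while of all 20935 features 69 were called higher and 31 lower. The limma adjusted p with this block was 0.114 for Bmp4, 0.170 for Tgfb2 and 0.300 for Smad7.

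The rest of the pathway was read from 7 lists. Probes were matched by RefSeq accession to 86 of their 98 genes, and 71 passed the filter on dim probes. Unmatched genes may still have a probe, since only 18713 of the 41012 probes received a symbol. Of the 71 genes 1 rose and 0 fell with the adjustment over all features. For 9 the groups did not overlap (12.7%, against 11.1% of all features). An unadjusted limma p under 0.05 was found for 20 (28.2%, against 16.0%). The lists were chosen with earlier results of these data known, so these shares only describe them. The median difference of the 71 genes was 0.02, with 38 positive. The called shares over all features were 0.75% higher and 0.287% lower.

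**Figure D4:**
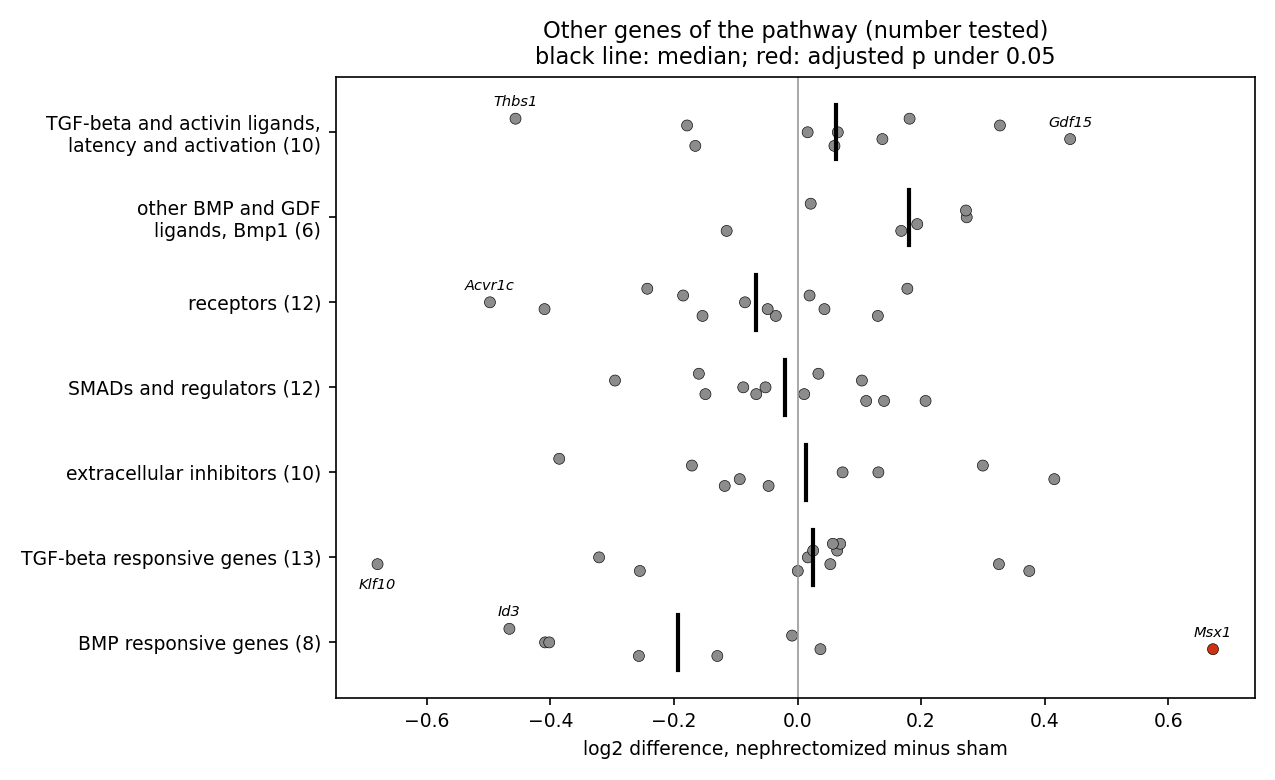
Log2 difference (x axis, nephrectomized minus sham) of 69 of the 71 other tested pathway genes by list, 1 point a gene, with the list median as a black line and genes past the adjusted threshold in red. Msx1 is the single red point, at 0.67, and the medians and the numbers in brackets cover all 71 genes.

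Of 10 tested genes for TGF-beta and activin ligands, their latency proteins and activators, 0 were called, 7 were positive and the median was 0.06. Gdf15, a divergent member of the superfamily that rises in stressed cells, was at 0.37, -0.07, -0.05 and 0.06 in sham and between 0.48 and 0.53 on the nephrectomized arrays, without overlap, with a difference of 0.44 ± 0.10 (SE; limma adjusted p = 0.0735). It passed under 3 of 22 alternative settings by limma, which were normexp (adjusted p = 0.0457), trend and robust variance (adjusted p = 0.0364) and leaving out sham replicate 1 (adjusted p = 0.0347), and its highest adjusted p was 0.587, on slide 1 alone. Thbs1, which encodes thrombospondin-1, an activator of latent TGF-beta, was at -0.46 ± 0.11 (SE; limma adjusted p = 0.102), also without overlap, and at -0.11 with normexp. Of the brightest members, Itgb6, a subunit of an integrin that releases TGF-beta, was at -0.17. Inhbb, the activin beta B subunit, was at 0.18 with overlap on its bright probe, which was 0.01 without sham replicate 4. A dimmer probe was at -0.91 without overlap (limma adjusted p = 0.0681 with every probe tested), so the probes of Inhbb disagreed.

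Of 6 tested genes among the other BMP and growth differentiation factor ligands and Bmp1, a protease that shares the BMP name, 0 were called, 5 were positive and the median was 0.18. Bmp1 was at 0.17 and Gdf10 at 0.27, each without overlap, Bmp6 at 0.27 and Gdf11 at 0.02. The dimmer probes of Bmp1 gave 0.07 and 0.28, both with overlap. Bmp6 was well above background on 2 sham and 3 nephrectomized arrays. Of 12 receptors 0 were called, 8 were negative and the median was -0.07. The endothelial type I receptor Acvrl1 was at -0.15 and the BMP receptor Bmpr1a at -0.05. The activin-type receptors Acvr1c and Acvr1b were at -0.50 and -0.41, but at -0.07 and -0.13 with normexp.

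Of 12 SMADs and SMAD regulators 0 were called and 6 were negative, with a median of -0.02. Smad6, the inhibitory SMAD of the BMP branch, was at 0.21 ± 0.07 (SE; limma adjusted p = 0.207) without overlap. Tgif1, a corepressor, was at -0.30, and the bright members Smurf2, a ubiquitin ligase for SMADs and receptors, and Smad1 were at -0.05 and -0.09.

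Of 10 extracellular inhibitors 0 were called, 5 were positive and the median was 0.01. Grem1, a secreted BMP antagonist, was at 0.42 and 0.31 on its probes. Sostdc1, a BMP antagonist of the renal tubule, was at 5.33, 5.39, 5.37 and 5.29 in sham and at 5.79, 5.60, 5.65 and 5.53 in nephrectomized kidneys, without overlap and with a difference of 0.30 ± 0.07 (SE; limma adjusted p = 0.0787). Bgn, a matrix proteoglycan that binds TGF-beta, was at -0.09.

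Of 13 genes known to respond to TGF-beta 0 were called, 9 were positive and the median was 0.03. At an unadjusted limma p under 0.05 there were 3 negative genes and 1 positive gene, against 16.0% of all features in either direction. Without overlap 2 genes were lower, against 4.07% of all features, and 0 were higher, against 7.06%. Snai1, a repressor of epithelial genes that was named after its values were seen, was at -0.32 ± 0.09 (SE; limma adjusted p = 0.136) without overlap. Its dimmer probe gave -0.16 with overlap (limma adjusted p = 0.586 with every probe tested). Fn1, the positive gene at an unadjusted limma p under 0.05, was also named after its values were seen. Its brighter probe was at 0.38 with overlap (limma adjusted p = 0.150) and its dimmer probe at 0.35 without overlap. Klf10, an early TGF-beta response factor, was at -0.68 on both of its probes (limma adjusted p = 0.114 for the brighter). The collagen gene Col1a2 was at 0.02. Tsc22d1 was at 0.05 on its brightest probe and at 0.13 and 0.39 on the others, the last without overlap (limma adjusted p = 0.162 with every probe tested).

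Of 8 genes known to respond to BMPs 1 rose, 0 fell and 6 were negative, with a median of -0.19 that was -0.14 on each slide and -0.02 with normexp. In this list 4 negative genes and 1 positive gene had an unadjusted limma p under 0.05, against 16.0% of all features in either direction. Msx1, a homeobox gene, rose by 0.67 ± 0.12 (SE; limma adjusted p = 0.0493), from -3.57, -4.13, -3.69 and -3.86 in sham to -3.15, -3.00, -3.14 and -3.26 in nephrectomized kidneys, without overlap. It lies just inside the threshold at a dim level, was at 0.36 with normexp (adjusted p = 0.0536) and passed under 5 of 22 alternative settings. Leaving out any 1 of the 8 arrays ended the call, with adjusted p between 0.0618 and 0.121. Id1 and Id3, inhibitors of differentiation and the standard readout of BMP signalling, were named after their values were seen. They were at -0.41 and -0.47 (limma adjusted p = 0.308 and 0.209), both with overlap. The other probes of Id3 gave -0.58 without overlap and -0.56 with overlap. The differences of Id1 and Id3 were -0.69 and -0.77 on slide 1 but -0.13 and -0.16 on slide 2, and Id2 was at -0.01.

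Markers of other cells were measured beside these genes. Summed over the tested markers of a cell type, relative to the 75th percentile signal, the 5 macrophage markers came to between 21.7 and 23.6 in sham and 19.4 and 23.0 in nephrectomized kidneys, with 5 of 5 negative and Adgre1 called lower. Of 4 neutrophil markers listed, Mpo was not matched to a probe by accession and Cxcr2 did not pass the filter on dim probes. The remaining 2, S100a8 and S100a9, came to between 1.08 and 1.68 in sham and 0.361 and 0.624 after nephrectomy, and both were called lower. The 3 lymphocyte markers tested, of 6 listed, were negative, with sums between 1.16 and 1.22 against 1.08 and 1.16. The 5 fibroblast and mesangium markers, with 3 positive, came to between 16.3 and 21.3 against 17.2 and 23.4. Of these, Col1a1 and Col3a1, both positive, are also counted among the genes known to respond to TGF-beta. The 5 endothelial markers, with 3 positive, came to between 24.3 and 29.4 against 26.7 and 30.4. The part of these cells in the values of Tgfb1, Bmp4 or the other genes was not tested, and in whole kidney fewer cells of a type and less RNA per cell cannot be told apart.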

How the data were processed

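Right kidney RNA of 4 sham-operated and 4 nephrectomized rats was labelled with Cy3 and hybridised to 1-colour Agilent arrays, per the labels' protocols. Per the file headers, Agilent Feature Extraction 10.5.1.1 gave a processed signal, an intensity that is background-subtracted and detrended within the array but not normalized between arrays, together with flags for spots above background and outlier spots. The deposited series table holds log2 values. Set against the scanner values centred on each probe's median the correlation was above 0.999 and the slope 1.00, so scale, centring and direction are known, with column medians of -0.01, 0.00, 0.00 and -0.01 for sham and 0.00, 0.01, 0.00 and 0.02 for nephrectomized replicates 1 to 4, and they served as an alternative.

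Of 45018 spots, 1639 controls and outlier spots were left out, and log2 signals were averaged per probe and shifted by the array's 75th percentile. The test took the 25228 probes with a value on every array and a signal well above background on 4 or more of the 8. Names came from RefSeq accessions of GRCr8, which matched 18713 of 41012 probes. The brightest probe stood for a gene, leaving 20935 features for the functions lmFit and eBayes of limma 3.58.1 under R 4.3.3 (6 residual and 2.37 prior degrees of freedom). The steps were tested on simulated data with changes larger than any member difference here, so that test does not cover changes of this size. All pathway genes past the threshold are named, or else the 2 brightest genes of a list and the 2 with the largest difference. Values of 2 of these genes are not reported here, though the list counts and medians include them. The members and lists were chosen with earlier results of these data known. Alternatives were normexp on the median spot signal (offset 50; the mean signal was not used here), 3 other scalings, 2 other filters, 2 other rules for probes, trend and robust variance, replicate and slide blocks, each slide alone, omission of each array in turn and the series table. The number of arrays limits the precision.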

Additional observations from a re-analysis of the deposited data

Results flagged for a closer look

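A value standing far from the other 3 of its group was looked for in 80 groups of 4 arrays, covering the 15 probes of the pathway members and the other genes named by rule. It was found in 7, where chance gives about 5%. Among the members only Bmp7 was affected, with sham replicate 4 lowest at 1.25 while the other sham values were each at 1.28. Inhbb was lowest in sham replicate 4 at 3.02, as was Thbs1 at -3.12. Acvr1c was lowest in sham replicate 2 at -3.57 and Col1a2 in sham replicate 1 at 3.60. Gdf15 was lowest in nephrectomized replicate 3 at 0.48, within a narrow group, and Klf10 was highest in nephrectomized replicate 4 at 2.60.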

How the results depend on the processing

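In the 22 alternatives 0 of 10 members were called in either direction. On each slide alone 0 of all features were called, so that the count of members was fixed there in advance. Few features were called with the replicate block (6 higher and 4 lower) and with no filter (17 and 3). The smallest adjusted p of a member under any alternative was 0.0820, for Bmp4. The difference of each member was unchanged with the other filters, every probe tested, trend and robust variance and either block. These settings could not change a sign, nor could the mean of probes for a gene with 1 probe. Under every alternative Tgfb1, Tgfb2, Smad3, Smad7, Bmp4 and Bmp7 kept their sign. The other 4 changed sign under some settings. Tgfb3 was at 0.032 on slide 2. Tgfbr1 was at -0.059 as the mean of its probes, at -0.033 on slide 2 and between -0.057 and 0.11 without single arrays. Bmp2 was between -0.011 and 0.23 and Fst between -0.012 and 0.21 without single arrays, and Fst was at -0.17 on slide 2. Among the other named genes Bmpr1a was at 0.067 on slide 2, Gdf11 at -0.00639 with normexp and -0.069 on slide 2, Col1a2 at -0.0035 with quantile and -0.018 with cyclic loess normalization, Inhbb at -0.37 as the mean of its probes, Tgif1 at 0.043 with normexp and Tsc22d1 at -0.11 on slide 1 and Id2 at 0.00555 with normexp and 0.097 on slide 2. Without single arrays Col1a2 lay between -0.12 and 0.16, Gdf11 between -0.038 and 0.093, Id2 between -0.056 and 0.080 and Tsc22d1 between -0.000277 and 0.096.

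The members higher without overlap numbered 0 with normexp, quantile and cyclic loess normalization (7.66%, 6.61% and 6.28% of all features under the same setting), 2 on each slide alone (24.1% on slide 1 and 22.6% on slide 2) and 1 to 2 without single arrays (8.46% to 9.58%). Those lower without overlap numbered 1 with normexp (2.42%) and with median scaling (4.28%), 4 on slide 1 (18.3%), 5 on slide 2 (18.0%) and 2 to 3 without single arrays (5.45% to 6.61%). The number of other pathway genes called higher, 1, was 0 with median scaling, cyclic loess, no filter, every probe tested, either block and each slide, 3 with trend and robust variance (Msx1, Gdf15 and Sostdc1) and 0 to 1 without single arrays. The 1 gene called with normexp and the 1 called without sham replicate 1 was Gdf15, not Msx1. The median of the BMP-responsive genes was -0.023 with normexp.

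Over all features 157 were higher and 60 lower. The counts were 295 and 99 with probes above background on all arrays, 17 and 3 with no filter, 398 and 132 with trend and robust variance, 69 and 31 with slide as a block, 0 and 0 on slide 1 and 0 and 0 on slide 2 by limma. Without single arrays they ranged from 18 to 162 higher and from 4 to 35 lower. The replicate block gave 6 higher and 4 lower. Same-numbered sham and nephrectomized arrays also shared a slide, but no label ties their animals together, and their deviations from the group means correlated at between -0.21 and 0.14. The cause of these changes was not tested.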
